A study of Mus musculus with 8 samples.

Results

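The pericentral zonation genes and Wnt target genes of the liver were examined as a set of 10 genes in 4 Control and 4 Mc1r LKO mice. The genes were Glul, Oat, Slc1a2, Rhbg, Lgr5, Axin2, Tbx3, Rnf43, Znrf3 and Rspo3. They were chosen by name, with earlier results of these data known, and were found by symbol among the 55487 genes of the count tables. The shares of all genes given beside the members are therefore a description. All 10 had enough reads for the test, which covered 13400 genes. Mc1r LKO mice carried floxed Mc1r alleles (Mc1r fl/fl) and a Cre recombinase driven by the promoter of Alb, the albumin gene (Alb Cre/+), which deletes Mc1r in hepatocytes. Control mice were age-matched Mc1r fl/fl mice. All 8 mice were males that had eaten a Western diet for 12 weeks from the age of 8 weeks, and livers were taken after a 4-h fast. The RNA came from whole liver, so that transcripts of endothelial, stellate and immune cells were read together with those of hepatocytes.

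Wnt ligands and R-spondins are released by the endothelial cells that line the central vein, and they activate beta-catenin in the neighbouring hepatocytes. Pericentral hepatocytes then express a characteristic set of genes, which includes the enzymes and transporters that capture ammonia and glutamate as glutamine before the blood leaves the lobule. R-spondins act by binding receptors of the Lgr family and removing Rnf43 and Znrf3, the ubiquitin ligases that take Frizzled receptors off the cell surface. Axin2, Rnf43, Znrf3 and Lgr5 are themselves induced by beta-catenin, and Axin2, Rnf43 and Znrf3 dampen the same signal.

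The libraries held between 10773151 and 24763375 counts per mouse, and the totals of the genotypes overlapped. Mc1r had 0 counts in every library, so that the deletion could not be checked in these data; 3 counts correspond to between 0.121 and 0.278 CPM (counts of a gene scaled to a common library size). The liver identity of the samples was clear, with 7 hepatocyte markers together at between 88810 and 107700 CPM in every mouse. Control 159, the library with the fewest counts, had the highest sum of Kupffer cell markers, 627 CPM, the top of a Control range that began at 256 CPM; the Mc1r LKO range was 167 to 387 CPM. Mc1r LKO 182 had the lowest sums of Kupffer and sinusoidal endothelial markers, 167 and 187 CPM. Calls that were lost or gained without both of these mice are given with their values beside the result.

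Transcription factors of the Tcf and Lef family bring beta-catenin to DNA at sites that contain CTTTGA or CTTTGT. These letters were searched on both strands of the 250 bases before the annotated start in the RefSeq promoter table of GRCm38.p6, where 5 of the 10 genes had 6 windows. A single window, that of Slc1a2, held the motif, and 27.6% of the 32851 windows of the table did. The Slc1a2 matches are printed here in 30 bases of the plus strand, at chr2:102706220-102706249 and chr2:102706349-102706378, beginning 206 and 77 bases before that start, which lies inside the Slc1a2 gene of the count tables, with the motif in capitals. The Glul window at chr1:153899679-153899928 and the Axin2 window at chr11:108920099-108920348, both on the plus strand, are printed because these genes are the usual markers of the pericentral zone and of Wnt activity, and neither contains the motif. The matches are a description of the letters in these windows only.
Slc1a2 first match: agaagagggacaTCAAAGgccccaaatggt
Slc1a2 second match: agcatgtgacttCTTTGAcatcaaaacact
Glul: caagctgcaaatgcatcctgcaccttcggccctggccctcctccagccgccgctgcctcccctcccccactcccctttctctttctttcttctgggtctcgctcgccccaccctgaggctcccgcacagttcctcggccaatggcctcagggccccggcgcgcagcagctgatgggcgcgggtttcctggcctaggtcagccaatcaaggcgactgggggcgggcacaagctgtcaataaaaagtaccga
Axin2: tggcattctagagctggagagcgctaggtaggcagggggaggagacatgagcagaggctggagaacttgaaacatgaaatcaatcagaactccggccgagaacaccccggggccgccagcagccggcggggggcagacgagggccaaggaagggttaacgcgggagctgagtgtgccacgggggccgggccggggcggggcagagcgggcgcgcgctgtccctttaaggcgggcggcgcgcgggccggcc

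To determine whether loss of Mc1r in hepatocytes altered pericentral and Wnt target expression, each gene was compared between the genotypes with the quasi-likelihood test of edgeR across all 13400 genes. No member passed an adjusted p of 0.05, a threshold that 0% of all tested genes passed with this test (17 genes with DESeq2 and 8 with the likelihood ratio test of edgeR, members not among them). At an unadjusted p of 0.05 with a log2 fold change of at least 0.25 in size, Oat was higher in Mc1r LKO mice, where 2.64% of all genes were called higher. At the same threshold Rnf43 was lower, where 2.66% of all genes were called lower. Together 2 of 10 members were called against 5.31% of all genes, and 2 of 10 had an unadjusted p below 0.05 of any fold against 6.72%. The genotypes overlapped for all 10 members, and 4.16% of all genes had no overlap. In all, 7 of the log2 fold changes were below 0, as were 52.1% of those of all genes, with a median of -0.25 for the members and -0.01 for all genes. Without Control 159 and Mc1r LKO 182 the median of the members was -0.09, and the calls were 2 higher and 0 lower. Of all genes, 1194 of 13483 were called in that setting in both directions together, against 711 of 13400 with all mice.

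**Figure D1:**
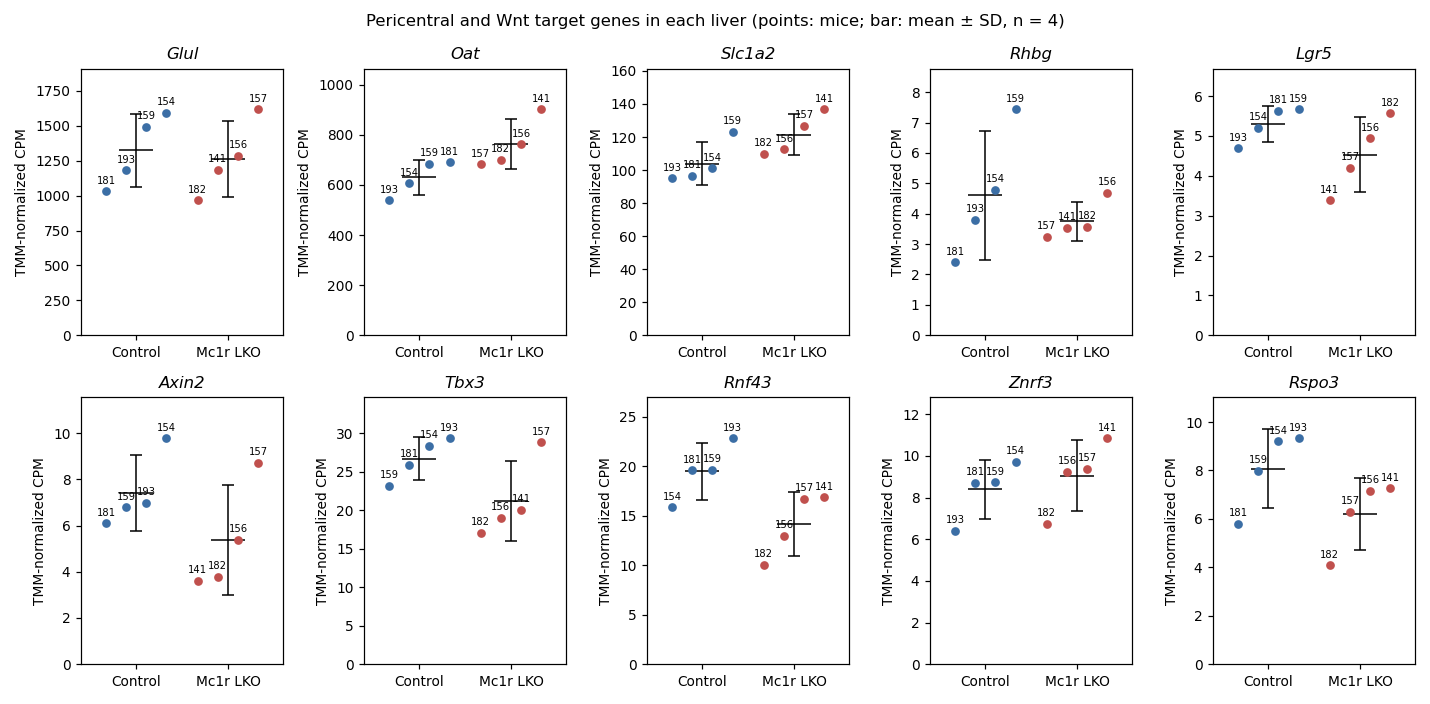
TMM-normalized CPM of the 10 genes in each liver (linear axes from 0), with 1 labelled point per mouse and the mean ± SD of the 4 mice of each genotype. The Control and Mc1r LKO points overlap in every panel; the Oat means were 630 and 762 CPM and the Rnf43 means 19.5 and 14.2 CPM.

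Among the genes of glutamine synthesis and ammonia handling, Glul encodes glutamine synthetase, which joins ammonia to glutamate in the hepatocytes next to the central vein. Glul (ENSMUSG00000026473, chr1:153899944-153909723, plus strand, GRCm38) was at 1592, 1492, 1030 and 1182 CPM in Control 154, 159, 181 and 193, and at 1187, 1284, 1619 and 965 CPM in Mc1r LKO 141, 156, 157 and 182. The highest value of each genotype was about as high as that of the other, and Mc1r LKO 182 was the lowest mouse of all. The means were 1324 ± 263 CPM and 1264 ± 272 CPM (SD, n = 4 each). The log2 fold change was -0.07 ± 0.18 (SE; 95% interval -0.47 to 0.33; edgeR adjusted p = 0.966), an interval that leaves room for differences of either sign. The sign itself turned without Control 154 (0.04), without Control 159 (0.0025) or without Mc1r LKO 182 (0.05). The exons of Glul share 93 of 3782 bases with Mir8114 on the same strand.

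Oat encodes ornithine aminotransferase, which turns ornithine into a precursor of glutamate in the same cells. Oat (ENSMUSG00000030934, chr7:132557478-132576398, minus strand) was at 606, 683, 690 and 539 CPM in the Control mice and at 902, 762, 683 and 701 CPM in the Mc1r LKO mice, in the same order of mice. In 3 Mc1r LKO livers Oat lay above every Control liver, and Mc1r LKO 157 was level with Control 159 and 181. Mean expression was 630 ± 71.4 CPM in Control and 762 ± 99.3 CPM in Mc1r LKO mice, 21.0% higher (log2 fold change 0.28 ± 0.12, 95% interval 0.0049 to 0.55). This difference did not hold after adjustment over all genes (edgeR adjusted p = 0.738, and 0.419 to 0.985 over 19 alternatives). It was no longer past the unadjusted threshold without Control 154 (log2 fold change 0.26), Control 193 (0.21), Mc1r LKO 141 (0.19) or Mc1r LKO 156 (0.28).

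Slc1a2, a high-affinity glutamate transporter that in liver marks pericentral hepatocytes, followed the direction of Oat with a smaller difference. Slc1a2 (ENSMUSG00000005089, chr2:102658659-102790784, plus strand) was at 101, 123, 96.7 and 94.99 CPM in the Control mice and at 137, 113, 127 and 110 CPM in the Mc1r LKO mice. Only Control 159 reached into the range of the Mc1r LKO livers, which all lay above the other Control livers. The means of 104 ± 13.01 and 121.5 ± 12.6 CPM gave a log2 fold change of 0.23 ± 0.11 (95% interval -0.02 to 0.47, edgeR adjusted p = 0.771). Slc1a2 passed the unadjusted threshold without Control 159 (log2 fold change 0.32), without Mc1r LKO 182 (0.28) and without both (0.37).

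Rhbg, an ammonia channel of the Rhesus family, was the least certain of these genes, because 1190 of its 1937 exon bases are shared with Gm38392 on the same strand and reads there could not be assigned to it. Rhbg (ENSMUSG00000104445, chr3:88242874-88254709, minus strand) was at 4.79, 7.44, 2.40 and 3.79 CPM in the Control mice and at 3.53, 4.68, 3.23 and 3.58 CPM in the Mc1r LKO mice, from 46 to 93 counts per library. The Control mice spanned both the highest and the lowest value. Its log2 fold change was -0.28 ± 0.31 (edgeR adjusted p = 0.911) and was 0.04 without Control 159.

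Of the genes that set Wnt signal strength, Rspo3 encodes the R-spondin made by central vein endothelial cells. Rspo3 (ENSMUSG00000019880, chr10:29452416-29535867, minus strand) was at 9.20, 7.995, 5.78 and 9.34 CPM in the Control mice and at 7.26, 7.15, 6.30 and 4.09 CPM in the Mc1r LKO mice. Control 181 was below 3 of the 4 Mc1r LKO livers, and the other Control livers were above all of them. The log2 fold change was -0.39 ± 0.22 (95% interval -0.88 to 0.11, edgeR adjusted p = 0.802), and it was -0.52, past the unadjusted threshold, without Control 181. Without Mc1r LKO 182 it was -0.23, and without both Control 159 and Mc1r LKO 182 it was -0.23 as well. The 7 markers of central vein endothelial cells, which include Wnt2 and Wnt9b, were summed after scaling by total count. The sums were between 21.8 and 32.9 CPM in Control and between 20.5 and 24.3 CPM in Mc1r LKO mice. In bulk RNA, fewer cells of a type and less RNA per cell cannot be told apart, and the part of these markers in the Rspo3 values was not tested.

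Lgr5, a receptor of R-spondins, was expressed at a low level with 49 to 115 counts per library. Lgr5 (ENSMUSG00000020140, chr10:115450311-115587780, minus strand) was at 5.21, 5.67, 5.63 and 4.69 CPM in the Control mice and at 3.39, 4.94, 4.20 and 5.57 CPM in the Mc1r LKO mice. The Control livers lay close together, whereas Mc1r LKO 141 and 157 were lower than any of them and Mc1r LKO 156 and 182 were within their range. Its log2 fold change was -0.22 ± 0.19 (95% interval -0.65 to 0.20, edgeR adjusted p = 0.884), and it ran from -0.10 without Mc1r LKO 141 to -0.33 without Mc1r LKO 182.

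Rnf43 and Znrf3, the paired ubiquitin ligases that lower Frizzled at the cell surface, differed in sign. Rnf43 (ENSMUSG00000034177, chr11:87662722-87735539, plus strand) was at 15.8, 19.6, 19.6 and 22.8 CPM in the Control mice and at 16.9, 12.996, 16.7 and 10.1 CPM in the Mc1r LKO mice. Only Control 154 lay within the Mc1r LKO range. Mean Rnf43 was 19.5 ± 2.86 CPM in Control and 14.2 ± 3.27 CPM in Mc1r LKO mice (log2 fold change -0.46 ± 0.18, 95% interval -0.85 to -0.07), without passing the adjustment (edgeR adjusted p = 0.734, and 0.385 to 0.985 over 19 alternatives). The unadjusted threshold was missed without Control 193 (log2 fold change -0.37), Mc1r LKO 156 (-0.42), Mc1r LKO 182 (-0.32) or both Control 159 and Mc1r LKO 182 (-0.32).

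Znrf3 (ENSMUSG00000041961, chr11:5276324-5444847, minus strand) was at 9.73, 8.74, 8.70 and 6.401 CPM in the Control mice and at 10.9, 9.23, 9.37 and 6.74 CPM in the Mc1r LKO mice. Each genotype had 1 low liver, Control 193 and Mc1r LKO 182. The log2 fold change of 0.11 ± 0.18 (95% interval -0.30 to 0.52, edgeR adjusted p = 0.939) was within the spread between mice. It was 0.0016 without Control 193 and 0.23 without Mc1r LKO 182. Whether Rnf43 and Znrf3 differed from each other in their response was not tested.

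Axin2 is a scaffold of the complex that degrades beta-catenin and is the target most often read as a measure of Wnt activity. Axin2 (ENSMUSG00000000142, chr11:108920349-108950783, plus strand) was at 9.78, 6.79, 6.10 and 6.97 CPM in the Control mice and at 3.60, 5.39, 8.72 and 3.78 CPM in the Mc1r LKO mice. In 3 Mc1r LKO livers Axin2 was below every Control liver, but Mc1r LKO 157 was above all Control livers except Control 154. The means were 7.41 ± 1.63 and 5.37 ± 2.38 CPM (log2 fold change -0.45 ± 0.29, 95% interval -1.10 to 0.19, edgeR adjusted p = 0.840). Leaving out single mice moved this value from -0.28 without Control 154, -0.30 without Mc1r LKO 141 and -0.31 without Mc1r LKO 182 to -0.79 without Mc1r LKO 157, the one omission with which Axin2 passed the unadjusted threshold.

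Tbx3, a T-box transcription factor and beta-catenin target of pericentral hepatocytes, had the same arrangement of mice. Tbx3 (ENSMUSG00000018604, chr5:119670669-119684724, plus strand) was at 28.4, 23.1, 25.9 and 29.4 CPM in the Control mice and at 20.05, 19.0, 28.8 and 17.1 CPM in the Mc1r LKO mice. Mc1r LKO 157 was again among the Control livers while the other Mc1r LKO livers were below them. The log2 fold change was -0.33 ± 0.16 (95% interval -0.69 to 0.03, edgeR adjusted p = 0.762). It passed the unadjusted threshold without Mc1r LKO 157 (-0.51) and without Control 159 (-0.38), it was -0.23 without Mc1r LKO 182, and the adjusted p of Tbx3 was between 0.528 and 0.985 over 19 alternatives.

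**Figure D2:**
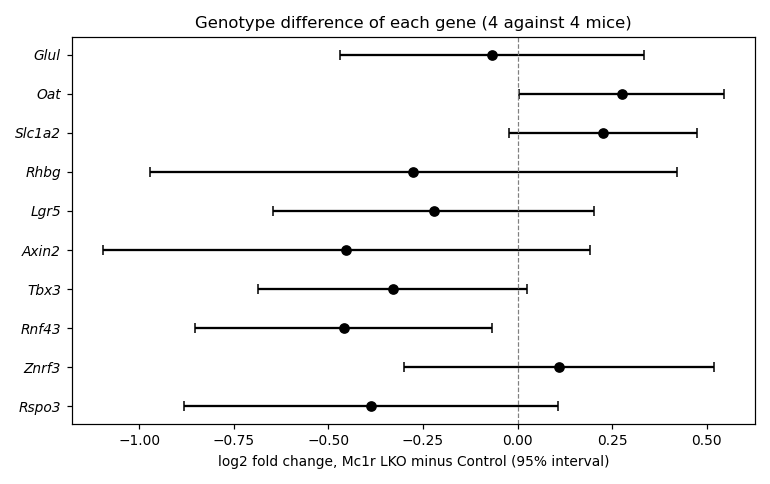
Log2 fold change of each gene, Mc1r LKO minus Control, with its 95% interval from edgeR (4 against 4 mice); the dashed line marks no difference. The intervals of Oat (0.0049 to 0.55) and Rnf43 (-0.85 to -0.07) are the ones that do not cross 0.

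Per kilobase of exon, Glul and Oat were far more abundant than the other members. Glul was at 350 ± 69.5 CPM per kilobase in Control and 334 ± 71.8 in Mc1r LKO livers, and Oat at 267 ± 30.3 and 323 ± 42.1, and the mice of these 2 genes overlapped (255 to 428 and 228 to 382 CPM per kilobase). Slc1a2 followed at 7.91 ± 0.991 and 9.25 ± 0.958 CPM per kilobase. With all exon bases counted, this was above all mice of the remaining genes. Tbx3 (4.03 and 3.20 CPM per kilobase in Control and Mc1r LKO), Rnf43 (2.97 and 2.16), Rspo3 (2.61 and 2.01) and Rhbg (2.38 and 1.94) overlapped with their neighbours in this order. The place of Rhbg is uncertain, also relative to Slc1a2. Its level was divided by all 1937 exon bases, of which 1190 are shared with Gm38392, so it may be too low. Axin2 (1.35 and 0.976) and Znrf3 (1.06 and 1.15) overlapped as well. Lgr5 was the least abundant, at 0.516 and 0.441 CPM per kilobase, with no mouse above 0.5525.

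The members were also described mouse by mouse, as the log2 difference of each gene from its Control mean. In Mc1r LKO 182, 7 of 10 members were below the Control mean with a median of -0.36, and Axin2, Rnf43 and Rspo3 were the lowest. In Mc1r LKO 141 and 156, 7 and 6 members were below it (medians -0.17 and -0.06). Mc1r LKO 157 stood with the Control livers, with 4 members below and a median of 0.12. The Control livers themselves ranged from a median of -0.13 with 7 members below (Control 193) to 0.13 with 4 below (Control 154). The medians of the genotypes thus overlapped.

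**Figure D3:**
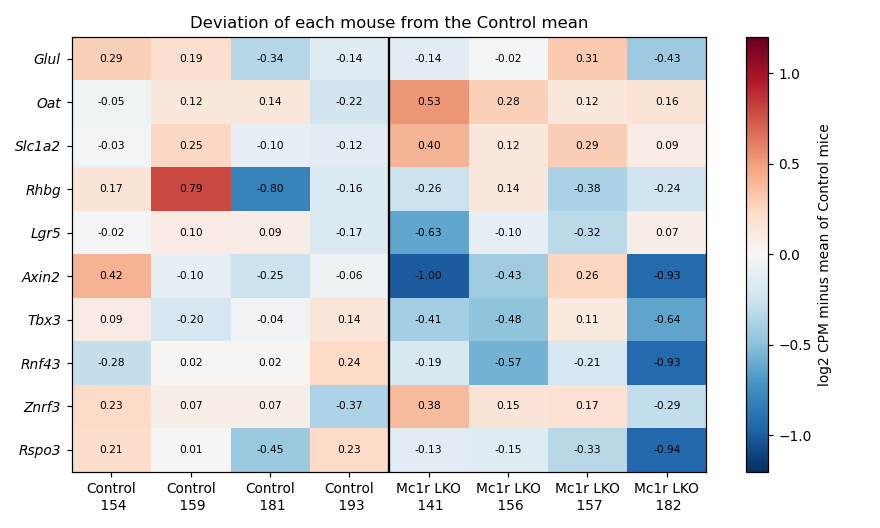
Log2 CPM of each gene in each mouse minus the mean of the 4 Control mice (columns are mice, rows are genes; red is higher and blue lower). Mc1r LKO 182 has 7 genes below the Control mean and a median of -0.36, whereas Mc1r LKO 157 has 4 below and a median of 0.12.

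No pair of members was correlated over the 8 livers beyond the adjustment for all pairs, and the pairs with the highest values are given as a description. Of 45 pairs tested with the exact two-sided permutation test, 27 had a Pearson r above 0, 4 had an unadjusted p below 0.05 and 0 passed the Benjamini-Hochberg adjustment (smallest adjusted p = 0.319 for Pearson and 0.205 for Spearman). Axin2 and Tbx3 had the highest r, 0.86 (permutation p = 0.00709, adjusted p = 0.319; Spearman rho 0.81, permutation p = 0.0218, adjusted p = 0.327), and r was 0.75 without the 2 mice farthest from the Axin2 median. After centring within genotype it was 0.79. Glul and Axin2, the pericentral enzyme and the Wnt reporter, had an r of 0.75 (permutation p = 0.0343, adjusted p = 0.386) and a rho of 0.64 (permutation p = 0.0962, adjusted p = 0.641). Their r was 0.47 without the mice farthest from the Glul median, Control 154 and Mc1r LKO 157, and 0.82 after centring.

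Oat ran opposite to Axin2 in rank, with a rho of -0.90 (permutation p = 0.00456, adjusted p = 0.205) and an r of -0.69 (permutation p = 0.0571, adjusted p = 0.431), or -0.67 without the 2 mice farthest from the Oat median. After centring within genotype the r of Oat and Axin2 was -0.51. Tbx3 and Rnf43 had an r of 0.75 (permutation p = 0.0265, adjusted p = 0.386; rho 0.62, permutation p = 0.115, adjusted p = 0.641). It was 0.18 without Mc1r LKO 156 and 182, the 2 mice farthest from the Tbx3 median, and leaving these out also narrows the range of Tbx3. Oat and Slc1a2 had an r of 0.75 (permutation p = 0.0278, adjusted p = 0.386; rho 0.55, permutation p = 0.171, adjusted p = 0.641), which was 0.28 without Control 193 and Mc1r LKO 141. The pooled values mix the genotype difference with variation between mice, and r after centring was 0.57 for both of the last 2 pairs.

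**Figure D4:**
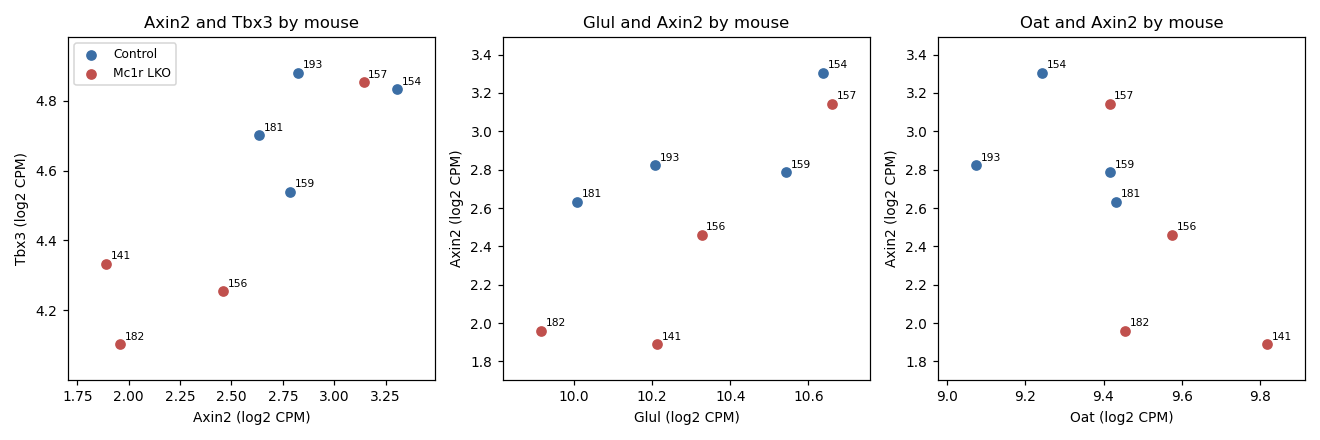
Log2 CPM of Axin2 against Tbx3, Glul against Axin2 and Oat against Axin2, with 1 labelled point per mouse (blue Control, red Mc1r LKO). Pearson r over the 8 mice was 0.86, 0.75 and -0.69, and none passed adjustment over the 45 pairs.

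Over the 8 mice centred within genotype, the genes most like Glul were Tex30 (r = 0.99), Impdh1 (r = 0.97) and Ifitm1 (r = 0.97), each at 3 to 6 CPM. Those most like Axin2 were Gm40923 (r = 0.99), Tmem43 (r = 0.98) and Rap1gap2 (r = 0.98), at means of 1.16, 24.1 and 0.708 CPM. Gm40923 and Rap1gap2 were thus at low levels. These were picked as the highest of 13400 genes and are a description of 8 livers.

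The other pericentral genes were on both sides of 0. All 33 were tested, of which 21 were higher and 12 lower, and their median was 0.06. None passed the adjusted threshold, and 1 was called higher and 2 lower at the unadjusted one. Of all genes, 2.64% were called higher and 2.66% lower. Cyp2e1, a cytochrome P450 of ethanol and drug oxidation, was at 5566 and 6029 CPM in Control and Mc1r LKO mice (log2 fold change 0.12 ± 0.16). The glutathione transferase Gstm1 was at 2465 and 2475 CPM. Ahr, the aryl hydrocarbon receptor, was at 27.0 to 36.7 CPM in the Control mice and at 39.6 to 46.5 CPM in the Mc1r LKO mice (log2 fold change 0.39 ± 0.11, edgeR adjusted p = 0.734). Its genotypes did not overlap, as for 4.16% of all genes. The drug-metabolizing Cyp3a11 was at 2956 ± 383 and 1938 ± 693 CPM (log2 fold change -0.61 ± 0.23), a difference past the unadjusted threshold except without Control 181 (-0.55), Mc1r LKO 157 (-0.50) or Control 159 and Mc1r LKO 182 together (-0.42). The carboxylate transporter Slc13a3 was at 41.6 ± 12.8 and 29.6 ± 4.84 CPM (log2 fold change -0.48 ± 0.20) and missed the threshold when Control 154, Control 159, Mc1r LKO 141, Mc1r LKO 156 or Mc1r LKO 182 was left out (-0.50 to -0.27) or both Control 159 and Mc1r LKO 182 were (-0.22).

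Periportal genes mark the opposite end of the lobule. Of 26, all tested, 16 were higher and 10 lower with a median of 0.03, and 0 passed the adjusted threshold. At the unadjusted one 1 was called in each direction, against 2.64% of all genes higher and 2.66% lower. Hsd17b6, a hydroxysteroid dehydrogenase, was at 56.5 to 155 CPM in Control and 32.5 to 52.0 CPM in Mc1r LKO mice, with no overlap, as for 4.16% of all genes. Its log2 fold change was -1.14 ± 0.28 (edgeR adjusted p = 0.734, and 0.022 to 0.985 over 19 alternatives), so whether it passed the adjusted threshold depended on the alternative. Arg1, the arginase of the urea cycle, was at 901 ± 136 and 1140 ± 189 CPM (log2 fold change 0.34 ± 0.15), and its call was lost when any mouse other than Control 181 and Mc1r LKO 157 was left out (0.26 to 0.37) or both Control 159 and Mc1r LKO 182 were (0.31). The urea cycle entry enzyme Cps1 varied widely, at 1145 ± 466 and 1503 ± 897 CPM.

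The list of glutamate, glutamine and ammonia genes, which Glul, Oat, Slc1a2 and Rhbg would join by function, had 27 of 32 genes tested. It shares Arg1, Cps1, Ass1, Asl and Gls2 with the periportal list, and Prodh and Slc1a4 with the other pericentral list. In it 21 were higher and 6 lower with a median of 0.10, where 52.1% of all genes were lower. At the unadjusted threshold 2 were called higher, against 2.64% of all genes, and 0 passed the adjusted one. The median was -0.0065 without Mc1r LKO 182 and 0.02 with 1 surrogate variable. The called genes were Arg1 and Slc38a2, a neutral amino acid transporter at 72.0 ± 16.1 and 99.5 ± 27.5 CPM (log2 fold change 0.47 ± 0.20), whose call was lost when Control 159, Control 193, Mc1r LKO 156 or Mc1r LKO 182 was left out (0.26 to 0.50) or both Control 159 and Mc1r LKO 182 were (0.18). Glud1, the mitochondrial glutamate dehydrogenase, was at 1031 ± 91.9 and 1105 ± 217 CPM.

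Of the Wnt ligands and their secretion factors, 8 of 13 were tested, with a median of 0.07. Wls, which carries Wnt proteins to the cell surface, was at 6.11, 7.62, 5.58 and 7.22 CPM in the Control mice and at 6.08, 3.90, 4.28 and 4.19 CPM in the Mc1r LKO mice (log2 fold change -0.52 ± 0.19). Mc1r LKO 141 was within the Control range and the other 3 were below it, and the call was lost without Control 159, Control 193, Mc1r LKO 156 or Mc1r LKO 157 (-0.48 to -0.45) and without both Control 159 and Mc1r LKO 182 (-0.41). Wnt2 and Wnt9b, the ligands of the central vein, were at 3.30 and 2.94 CPM and at 0.860 and 1.06 CPM in Control and Mc1r LKO mice.

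Of 16 Wnt receptors and co-receptors, 11 were tested, 3 higher and 8 lower, with a median of -0.12. At the unadjusted threshold 2 were called lower, against 2.66% of all genes. Fzd7, a Frizzled receptor, was at 17.4, 39.8, 18.5 and 18.9 CPM in the Control mice and at 14.2, 14.2, 15.6 and 14.1 CPM in the Mc1r LKO mice. The genotypes did not overlap, as for 4.16% of all genes, and Control 159 was far above the other Control livers (log2 fold change -0.69 ± 0.25, edgeR adjusted p = 0.734). Without Control 159 it was -0.32, and -0.31 without both Control 159 and Mc1r LKO 182, with the call kept in each. Fzd4 was at 40.5 ± 6.44 and 29.0 ± 8.47 CPM (log2 fold change -0.49 ± 0.21), with the call lost when Control 154, Control 159, Control 193, Mc1r LKO 156 or Mc1r LKO 182 was left out (-0.52 to -0.29) or both Control 159 and Mc1r LKO 182 were (-0.27). The co-receptors Lrp5 and Lrp6 and the R-spondin receptor Lgr4 differed by log2 fold changes of -0.05, -0.05 and 0.05.

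Downstream of the receptors, the medians of the destruction complex, nuclear effector and target lists were between -0.07 and -0.03, with single genes outside the range of most genes, such as Tle1. The 18 genes of the destruction complex and Dishevelled, all tested, had a median of -0.03, with 8 higher, 10 lower and 0 called. Ctnnb1, which encodes beta-catenin, was at 188 ± 23.5 and 190.1 ± 14.5 CPM. Among 12 of 14 nuclear effectors, median -0.06, Tle1, a Groucho co-repressor, was called higher at 32.3 ± 2.12 and 43.4 ± 8.53 CPM (log2 fold change 0.43 ± 0.14, edgeR adjusted p = 0.734). Of the secreted and surface inhibitors, 4 of 16 had enough reads, with a median of -0.11, 1 higher, 3 lower and 0 called. Notum, a Wnt deacylase and pericentral target, was the higher one, at 22.1 ± 4.03 and 23.5 ± 3.76 CPM. Of 12 other Wnt targets, 9 were tested, with a median of -0.07, 3 higher, 6 lower and 0 called, and Ccnd1, cyclin D1, was at 39.3 ± 14.97 and 37.5 ± 11.5 CPM.

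**Figure D5:**
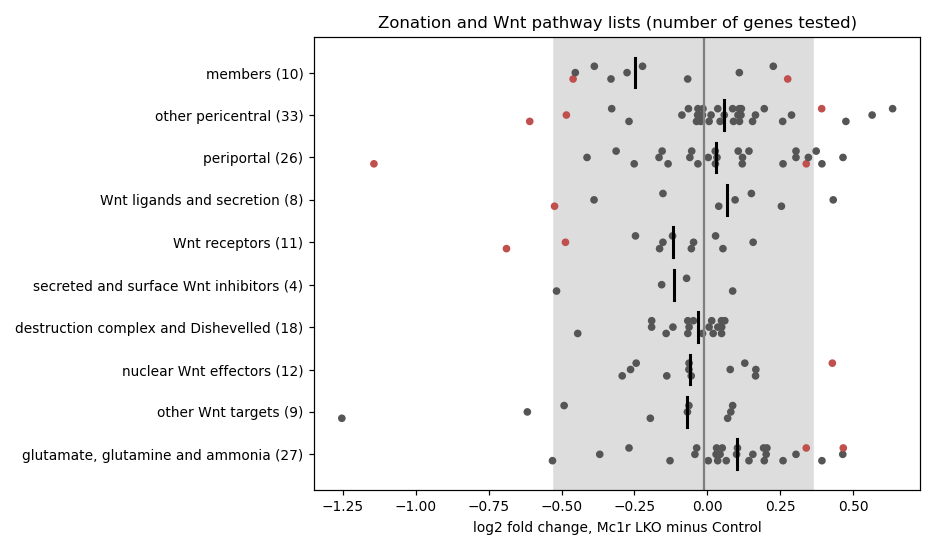
Log2 fold change (Mc1r LKO minus Control) of each tested gene of the 10 members and of 9 zonation and Wnt pathway lists, with the number tested in brackets. Red points have an unadjusted p under 0.05, black bars are list medians (-0.25 for the members, 0.06 for other pericentral and 0.03 for periportal genes), the grey band runs from the 5 to the 95 percentile of all genes (-0.52 to 0.36) and the grey line is their median, -0.01.

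Markers of other liver cells were measured in the same libraries. The summed sinusoidal endothelial markers ranged from 258 to 335 CPM in Control and from 187 to 326 CPM in Mc1r LKO mice, where 8 of the 9 genes were lower (median -0.16). All 7 Kupffer cell markers were lower, with a median of -0.45, and 1 of them, Csf1r, passed the unadjusted threshold (70.8 ± 33.8 and 41.4 ± 11.4 CPM, log2 fold change -0.77 ± 0.32). That call was lost when Control 159, Control 193, Mc1r LKO 141, Mc1r LKO 157 or Mc1r LKO 182 was left out (-0.83 to -0.45) or both Control 159 and Mc1r LKO 182 were (-0.27). Stellate cell markers summed to 433 to 791 and 399 to 685 CPM, cholangiocyte markers to 57.8 to 159 and 27.1 to 262 CPM, and lymphocyte markers to 1.52 to 7.43 and 1.30 to 2.76 CPM, each pair in the order Control and Mc1r LKO. None of the markers was at 0 in all mice. Mc1r LKO 182 was the lowest of its genotype for Glul, Slc1a2, Tbx3, Rnf43, Znrf3 and Rspo3. It was the highest of its genotype for Lgr5, and neither for Oat, Rhbg and Axin2. It was also the lowest mouse of all for the sinusoidal, stellate, cholangiocyte, Kupffer and lymphocyte sums and the highest for the hepatocyte sum. For the central vein sum it was the lowest when scaled by total count, but not with the TMM factors used for the members. The part of these cells in the values of the members was not tested.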

How the data were processed

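RNA from whole liver was sequenced from a stranded mRNA library for each mouse. The authors trimmed the reads with Trim Galore 0.6.6, aligned them with STAR 2.7.6a and counted read pairs per gene by strand with featureCounts of Subread 2.0.1, and they deposited raw counts per gene for each mouse. Per the file headers the annotation is an Ensembl release of GRCm38. Read pairs common to genes that overlap on the same strand can be lost in such counting.

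Groups came from the sample labels, with 4 mice per genotype. Genes were kept with filterByExpr (minimum count 10, minimum total count 15), scaled with TMM factors and compared, Mc1r LKO against Control, by the quasi-likelihood functions glmQLFit and glmQLFTest of edgeR 4.0.16 (R 4.3.3), and p-values were adjusted by the Benjamini-Hochberg method for the 13400 genes. The study's methods name the filter and normalization but not the test. CPM are TMM-normalized for tested genes and scaled by total count for other genes and for marker sums; log2 CPM have a prior count of 2. The script was tested on simulated data. Libraries of a genotype differed beyond sampling noise (chi-square per degree of freedom of at least 11.0), so none was a copy. The labels name no batch. Exact permutation tests of 4 against 4 mice cannot go below p = 0.0286.

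The members and gene lists were chosen with earlier results of these data known. Named genes are the members, the genes of each list with p below 0.05 or among the 3 highest by CPM, and the 3 genes most like Glul and Axin2; list genes outside this rule (Ryk, Tnks, Myc, Wnt2 and Wnt9b) were named after their values were seen. A total of 19 alternatives were run, including DESeq2 1.42.0, limma-voom 3.58.1 and 1 surrogate variable (sva 3.50.0); the one without Control 159 and Mc1r LKO 182 was chosen after seeing the data.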

Additional observations from a re-analysis of the deposited data

Results flagged for a closer look

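None of the 10 members had a mouse that Dixon's gap test set apart from its genotype. Among the 120 groups of 4 mice checked, 6 had such a mouse, and chance gives about 6. The check covered the members and the list genes named by rule. Myc, Ryk, Tnks, Wnt2, Wnt9b and the genes most like Glul and Axin2 were not checked. Ahr was at 46.5 CPM in Mc1r LKO 141 and at 39.6 to 40.3 CPM in the other Mc1r LKO mice. Wnt4, a Wnt ligand, was at 4.49 CPM in Mc1r LKO 141 and at 3.23 to 3.37 CPM in the others. Csnk1d, a casein kinase of the Wnt pathway, was at 56.4 CPM in Mc1r LKO 141 and at 67.4 to 69.2 CPM in the others. Fzd7 was at 39.8 CPM in Control 159 and at 17.4 to 18.9 CPM in the remaining Controls; it was at 15.6 CPM in Mc1r LKO 157 and at 14.1 to 14.2 CPM in the other Mc1r LKO mice. Glud1 was at 1430 CPM in Mc1r LKO 182 and at 971 to 1024 CPM in the others.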

How the results depend on the processing

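No paired analysis was possible because the mice of the 2 genotypes share no numbers. Over the alternatives, 0 members passed an adjusted p of 0.05. Among all genes, 17 passed it with DESeq2, 8 with the likelihood ratio test of edgeR and 1 with no filter beyond 1 count, against 0 with the quasi-likelihood test (901 at an unadjusted p alone). At the unadjusted p and fold limit, 711 genes were called, and 1140 with no filter beyond 1 count. There were 1194 without Control 159 and Mc1r LKO 182, and 282 with a log2 fold change of at least 0.5. More than 711 were also called with 1 surrogate variable. The same held without Control 154, 159 or 181 and without Mc1r LKO 157 or 182. Fewer were called without Control 193 and without Mc1r LKO 141 or 156. Counts of called members did not always move in the same direction as the count of all genes. Without Control 154, more genes were called, but members called higher fell from 1 to 0. Without Mc1r LKO 182, more genes were called and members called higher rose from 1 to 2, but members called lower fell from 1 to 0. Without Control 193, fewer genes were called, and members called in each direction fell from 1 to 0. Members called higher were 0 with the likelihood ratio test, upper quartile normalization, the total count alone or a fold limit of 0.5, 2 with 1 surrogate variable or without both mice, and 0 to 2 when single mice were left out. Members called lower were 2 with no filter beyond 1 count, 0 with a fold limit of 0.5 or without both mice, and 0 to 3 when single mice were left out.

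The median log2 fold change of the members was -0.087 without both mice and -0.27 to -0.09 when single mice were left out. That of the Wnt ligands was -0.20 to 0.26 and that of the nuclear effectors -0.13 to 0.062 when single mice were left out, with 0.0092 for the nuclear effectors without both. That of the Wnt receptors was -0.054 with 1 surrogate variable, -0.025 without both mice and -0.16 to -0.057 when single mice were left out. The log2 fold change of Glul turned to 0.022 with 1 surrogate variable, 0.038 without Control 154, 0.0025 without Control 159, 0.047 without Mc1r LKO 182 and 0.11 without both Control 159 and Mc1r LKO 182. That of Rhbg turned to 0.041 without Control 159 and 0.059 without both, and ranged from -0.49 to 0.041 when single mice were left out. The call of Oat was also lost with the likelihood ratio test, upper quartile normalization and the total count alone. Among the other named genes, the calls of Fzd4 were lost with upper quartile normalization and the total count alone, of Arg1 with the total count alone and 1 surrogate variable, of Slc13a3 with limma-voom and 1 surrogate variable, and of Csf1r with limma-voom and robust dispersion. Slc1a2 passed the limit with 1 surrogate variable and Tbx3 with no filter beyond 1 count. The cause of these changes was not tested. Counts per library were lowest for Rhbg, from 46 to 93, and the part of depth in its spread was not tested.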

Other observations

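Tnks, a tankyrase that promotes the breakdown of axin, and Ryk, a Wnt co-receptor, were each without overlap between the genotypes although neither passed the unadjusted threshold in edgeR. Ryk was at 32.5, 28.7, 33.4 and 34.9 CPM in Control 154, 159, 181 and 193 and at 36.2, 35.3, 36.4 and 36.7 CPM in Mc1r LKO 141, 156, 157 and 182 (log2 fold change 0.16 ± 0.08). Tnks averaged 27.3 CPM in Control and 24.8 CPM in Mc1r LKO mice (log2 fold change -0.14 ± 0.08). Of all genes, 4.16% had no overlap.

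Myc, a classical beta-catenin target, had the largest negative log2 fold change of the listed Wnt targets, -1.25 ± 0.66 (edgeR adjusted p = 0.776). It was at 6.54, 31.5, 2.97 and 4.32 CPM in the Control mice and at 3.73, 4.74, 6.10 and 3.78 CPM in the Mc1r LKO mice. Control 159 alone was above the Mc1r LKO range by a wide margin, and 2 of the other Control livers lay within that range or below it.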
